A study of Danio rerio with 36 samples.

Results

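Retinal cells without GFP (C), sorted from the eyes of zebrafish that carry Tg(GFAP:GFP), were compared between 192hpf and 96hpf. These samples were taken by stage and fraction and make up 6 of the 36 samples of the series, 3 at each stage. The other samples are GFP cells (MG) at the same 6 stages and C at the earlier stages and at 120hpf. All animals of the groups compared carried the GFAP:GFP transgene in an otherwise control background, and neither group received a treatment that the other lacked. PTU, which blocks the making of melanin, was given to the embryos of the study. Whole eyes were pooled, dissociated with trypsin and sorted by FACS, so C was defined by the lack of GFP and not by a marker of its own. Cells of the cornea, skin, lens, pigment epithelium, vessels and extraocular muscle could therefore enter C with the neurons of the retina.

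The retina of a 96hpf larva already sees. Rods and cones turn light into a change of membrane voltage through an opsin, a transducin, a phosphodiesterase and a cyclic nucleotide-gated channel. Bipolar cells carry the signal to amacrine and ganglion cells, and horizontal cells adjust it at the first synapse. The retinal pigment epithelium (RPE) returns all-trans retinal to the 11-cis form in the visual cycle. New neurons continue to be added at the ciliary marginal zone (CMZ) throughout the life of a fish, and Müller glia span the layers and support the neurons.

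The 3 columns of each group differed about as repeated draws from 1 library do. Chi-square ratios of their reads, which are near 1 for repeated draws from 1 library, were 0.129, 0.990 and 0.932 within 96hpf C and 0.117, 0.911 and 0.976 within 192hpf C. Between the stages the ratio was 19.6 to 20.6. Columns 1 and 2 of each group lay closer than separate draws would. The ratio describes the median gene. Among genes with at least 20 reads in a pair, 0.253% to 5.58% lay beyond the 95% limit of counting, where repeated draws give 5%, and among those with at least 1000 reads 0.463% to 7.84% did, so some abundant genes such as rho differed by more than counting. The labels give the columns as separate replicates, but since most genes differed by no more than sampling noise each group was counted as 1 sample, no test was made and no p-value is given. Columns held 7384996 to 7404255 reads on genes at 96hpf and 5467220 to 5939263 at 192hpf. Levels are in CPM, the reads of a gene scaled to 1000000 reads in its column, and are not corrected for gene length. A difference is the ratio of the mean CPM, with a 95% exact binomial interval that covers counting error only, and a log2 is that of 192hpf over 96hpf with each mean set to at least the floor of 3 reads (0.549 CPM). "Higher" and "lower" denote a difference of at least 2-fold between these 2 libraries on that scale. How separate pools of animals would vary is not known from them. Columns of the 2 stages did not overlap for 79.7% of the genes over the floor, so columns that lie apart give no support from replicates.

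Of 18560 genes over the floor at either stage, 3599 (19.4%) were higher at 192hpf and 2015 (10.9%) were lower. The counts given below for each gene list are to be read beside these shares. A difference of 4-fold was met by 1238 genes upward and 331 downward, and 16-fold by 124 and 21. The median log2 of all genes was 0.07. Among the 10109 genes over 10 CPM, 1393 were higher and 878 lower, with a median of -0.02. In bulk RNA of a sorted pool, fewer cells of a type and less RNA per cell cannot be told apart.

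By its markers C was depleted of Müller glia, but it was not purely neural. GFAP, the filament protein whose promoter drives the transgene, had 1.76, 1.90 and 0.676 CPM at 96hpf C and 0.182, 0.183 and 0.337 CPM at 192hpf C, against means of 17.3 and 10.2 CPM in MG. Genes of the cornea and epidermis took 0.523% of the reads of 96hpf C and 6.78% of those of 192hpf C. Opsins and other cone genes, although of neurons, were more abundant in MG, where the cone list summed to 221226 CPM at 96hpf, against 7056 CPM in C. Leaving the reads of epithelial, lens, pigment, blood, muscle and connective tissue lists out of the library size, a scaling chosen after the data were seen, moved the median log2 of all genes from 0.07 to 0.16 and reversed no named gene. Only reads of the listed genes were left out, so other RNA of such cells stayed in the library size. How far such RNA lowers the share of neural genes was not tested.

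**Figure D1:**
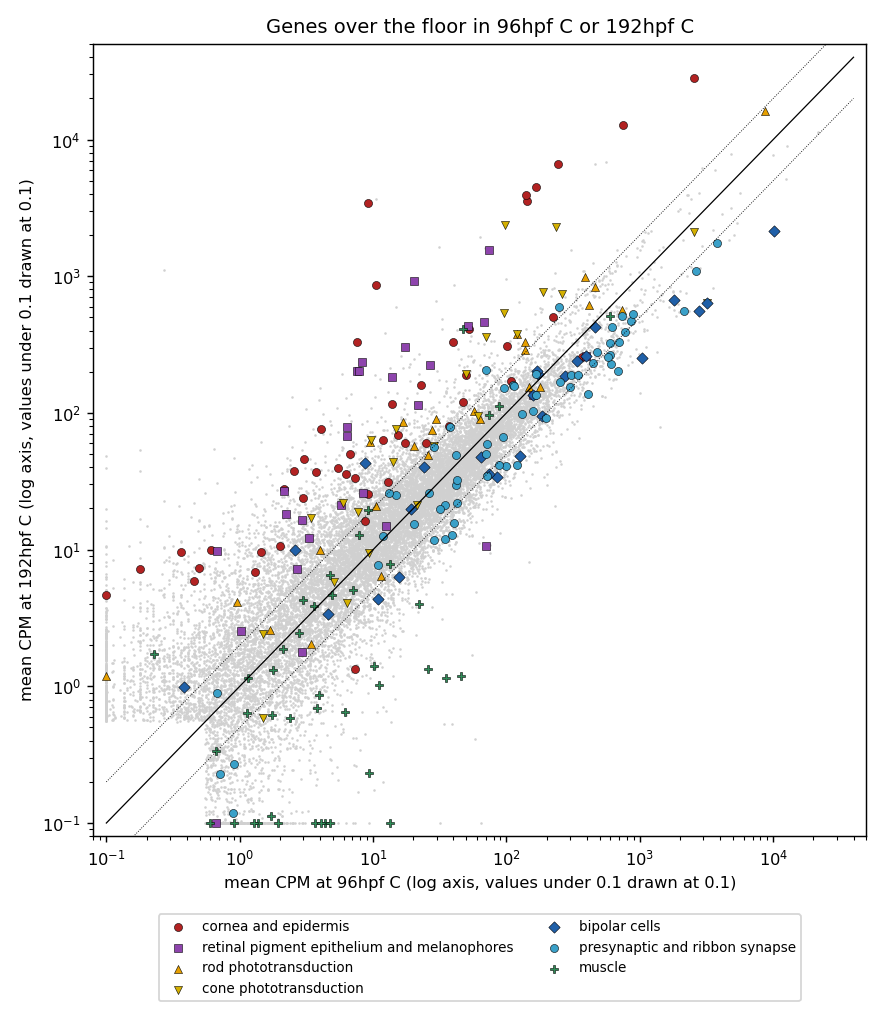
Mean CPM of each gene at 96hpf C (x axis) and 192hpf C (y axis), both on log axes, with genes of 7 lists coloured. Genes of the cornea and epidermis lie far above the diagonal, led by krt97 at 9.15 and 3424 CPM, and genes of bipolar cells and synapses lie below it, with gnao1b at 10144 and 2130 CPM.

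Rod genes were at a higher level in C at 192hpf. Of 25 rod phototransduction genes over the floor, 12 were higher and none lower, with a median log2 of 0.99. The sum of the list went from 11749 to 21072 CPM, most of it from rhodopsin. In MG the list was more abundant and did not rise, at 92426 CPM at 96hpf and 85601 CPM at 192hpf, with rho at 59963 and 54853 CPM. The opsin itself, rho, had 8626, 8599 and 8995 CPM at 96hpf and 15883, 15840 and 16574 CPM at 192hpf. Its columns did not overlap, as for 79.7% of all genes over the floor, and the 1.84-fold difference (95% interval 1.82 to 1.86) lay under the 2-fold limit. Rod transducin, GNAT1, stood in the same range of change at 1.81-fold (1.73 to 1.89), from 458 to 828 CPM. Some other genes that switch the signal off or carry it further had larger differences. They were picked after their values were seen or for their abundance. The opsin kinase grk1b, counted here with the rod genes though not shown to be of rods, was 6.50-fold higher (5.01 to 8.51). It had 8.94, 9.55 and 9.87 CPM at 96hpf and 61.8, 60.0 and 62.5 CPM at 192hpf. The phosphodiesterase subunit pde6b was 5.18-fold higher (4.25 to 6.37) and the channel subunit cngb1a 4.35-fold (1.79 to 11.9), the latter from only 7.0 reads at 96hpf. The arrestins sagb and saga, which bind activated opsin, were 2.54-fold (2.43 to 2.66) and 2.39-fold (2.21 to 2.58) higher. The beta subunit gnb1b, which other neurons also make, went from 741 to 564 CPM and was neither higher nor lower by the 2-fold limit.

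Cone genes showed the larger differences of the photoreceptor lists. Of 24 genes over the floor 15 were higher and 2 lower, and the median log2 was 1.57. The ultraviolet opsin opn1sw1 had 234, 232 and 238 CPM at 96hpf and 2295, 2336 and 2242 CPM at 192hpf. All columns of 192hpf lay far above those of 96hpf, a 9.77-fold difference (9.28 to 10.3). The green opsin opn1mw1 did not share it, with 2549, 2530 and 2533 CPM at 96hpf and 2101, 2109 and 2084 CPM at 192hpf. A second green opsin, opn1mw2, was 2.01-fold higher (1.68 to 2.4), and varied between columns from 22.0 to 35.4 CPM at 96hpf. Its log2 of 1.01 fell under the limit with other scalings (0.94 with TMM and with median-of-ratios factors), with a pseudocount of 1 CPM (0.98) and without 96hpf C replicate 1 (0.85) or 192hpf C replicate 1 (0.92) or 2 (0.99). Near-identical green opsin copies can share reads, so the division among them is uncertain. Downstream of the opsins most genes of the cascade were higher. Cone transducin GNAT2 had 188, 191 and 190 CPM at 96hpf and 770, 773 and 752 CPM at 192hpf, 4.04-fold higher (3.80 to 4.29). The inhibitory phosphodiesterase subunit pde6ha was 5.59-fold higher (5.15 to 6.07), the channel subunit CNGA3 5.18-fold (4.2 to 6.46) and the cone arrestin ARR3 3.85-fold (3.42 to 4.35). Of the 2 genes that carry the human symbol GRK7, the cone opsin kinase, the more abundant was 5.1-fold higher (4.63 to 5.63) and the other had 5.05 and 5.77 CPM. A retinol-binding protein counted with the cone genes, rbp4l, was at 95.8, 95.7 and 101 CPM at 96hpf and 2345, 2346 and 2363 CPM at 192hpf. It was 24.1-fold higher (22.4 to 26.1), the largest difference of the cone list, and it may share reads with another gene, si:dkey-30k6.7. The lower members were gnb3a, which ON bipolar cells share with cones in mammals, and opn1mw3 at 1.5 and 0.586 CPM.

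Transcription factors of photoreceptors did not move as the phototransduction genes did. Of 24 over the floor 3 were higher and 4 lower, with a median log2 of 0.24. These are shares of 12.5% and 16.7%, beside 19.4% and 10.9% of all genes. The homeobox gene crx, active in photoreceptors and bipolar cells, had 1115, 1113 and 1089 CPM at 96hpf and 302, 306 and 307 CPM at 192hpf. That is 3.63-fold lower (3.44 to 3.82), and a second gene with the human symbol CRX was 2.64-fold lower (2.49 to 2.80). NEUROD1 and RORB, which act in the making of photoreceptors and other neurons, went from 1340 to 774 CPM and from 388 to 207 CPM, both short of the limit. The cone factors pulled the other way. The homeobox gene six7, needed for green cones in zebrafish, was 2.23-fold higher (1.96 to 2.54), and foxq2, needed for blue cones in zebrafish, was 5.39-fold higher (2.79 to 12.6) from 10.3 reads at 96hpf.

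In the list of the outer segment and cilium, 7 of 35 genes were higher and 1 lower, with a median log2 of 0.26, so the share of higher genes, 20%, was near the 19.4% of all genes. The members named here were picked after their values were seen or for their abundance. The microtubule-associated genes rp1l1b and rp1l1a were 13.2-fold (9.61 to 18.9) and 4.68-fold (3.67 to 6.07) higher. Disc morphogenesis genes PROM1 and cdhr1a were 3.28-fold (2.74 to 3.93) and 3.2-fold (2.64 to 3.92) higher, and the adhesion gene PCDH15 was 3.06-fold higher (2.57 to 3.66). Among the genes that were not called, CEP290 had 63.3 and 87.7 CPM, the motor KIF3A 104 and 62.7 CPM and the lipid-binding UNC119 68.2 and 40.4 CPM.

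Visual cycle genes and those of pigmented cells were higher in large part. Of 22 visual cycle genes 15 were higher and none lower (median log2 1.51), and the sum went from 401 to 3984 CPM. The RPE isomerase rpe65a, which makes 11-cis retinol, had 20, 19.9 and 21.0 CPM at 96hpf and 915, 922 and 923 CPM at 192hpf. It was 45.3-fold higher (38.6 to 53.7). Its partner rlbp1b, the retinaldehyde-binding protein that zebrafish use in the RPE, had 67, 67.4 and 73.6 CPM at 96hpf and 1611, 1623 and 1571 CPM at 192hpf, 23.1-fold higher (21.1 to 25.3). The retinol dehydrogenase rdh5, the retinol receptor STRA6 and the opsin-like isomerase RGR were 26.7-fold (20.6 to 35.9), 25.8-fold (19.8 to 34.1) and 6.82-fold (6.20 to 7.52) higher. RDH8, which reduces all-trans retinal inside the photoreceptor, was 8.79-fold higher (7.43 to 10.4). In MG rpe65a had 5.23 and 2.71 CPM, rlbp1b 10.5 and 16.8 CPM and RGR 55.1 and 75.8 CPM.

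Melanin genes followed the RPE genes even though PTU stops the pigment from forming. Of 28 genes of RPE and melanophores 22 were higher and 1 lower, with a median log2 of 2.90 and sums of 1000 and 5540 CPM. This list shares genes with that of the visual cycle, rpe65a and RGR among them, so its count and sums are not separate from those above. The dopachrome tautomerase dct had 72.2, 72.7 and 76.6 CPM at 96hpf and 1546, 1538 and 1552 CPM at 192hpf, 20.9-fold higher (19.2 to 22.9). The melanosome matrix gene pmelb was 28.5-fold higher (22.0 to 37.4), the transporter slc45a2 17.5-fold (14.6 to 21.1) and TYRP1 13.2-fold (10.7 to 16.3). The upstream genes were lower in level but moved alike. The factor mitfa was 8.2-fold higher (4.91 to 15), the receptor GPR143 10.7-fold (7.86 to 14.8) and the rate-limiting tyrosinase TYR 5.66-fold (3.59 to 9.83). In MG 12 of the 23 genes of this list over the MG floor were higher and 1 lower (median 1.22), with sums of 355 and 541 CPM, and dct had 11.5 and 61.8 CPM there. The lower member in C was serpinf1, which encodes the secreted factor PEDF, at 71.3, 70.5 and 69.3 CPM at 96hpf and 12.5, 11.3 and 8.33 CPM at 192hpf, 6.57-fold lower (5.05 to 8.78). Among iridophore and xanthophore genes 5 of 12 were higher and 1 lower (median 0.48), a weaker pattern than that of the melanin genes, with the purine enzymes PAICS at 38.2 and 73.0 CPM and GART at 14.1 CPM at both stages.

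Bipolar cell genes were lower at 192hpf. Of 25 over the floor 10 were lower and 2 higher, the median log2 was -0.56, and the sum fell from 21570 to 6264 CPM. Much of the fall in the sum lay with gnao1b, the most abundant of them, at 10144 and 2130 CPM. The gene gnao1b encodes the G protein alpha subunit that couples the glutamate receptor of ON bipolar cells to its channel. It had 10140, 10117 and 10175 CPM at 96hpf and 2136, 2137 and 2117 CPM at 192hpf, 4.76-fold lower (4.67 to 4.86). The bipolar homeobox gene VSX1 had 2778, 2779 and 2790 CPM at 96hpf and 560, 558 and 549 CPM at 192hpf, 5.01-fold lower (4.82 to 5.20). The columns of the stages were far apart in both genes. The G protein subunits gnb3a and GNG13 were 5.03-fold (4.86 to 5.21) and 4.11-fold (3.88 to 4.35) lower, and isl1, a factor of ON bipolar and other inner neurons, 2.71-fold (2.61 to 2.81). Outside the list, and named after their values were seen, the retinal homeobox genes LHX4 and dmbx1a were 3.77-fold (3.52 to 4.03) and 4.0-fold (3.67 to 4.36) lower. The receptor end of the ON pathway did not follow. The channel trpm1b went from 397 to 260 CPM, short of the limit, the glutamate receptor GRM6 was 3.83-fold higher (2.26 to 6.89) at only 2.61 and 10 CPM, and one of the 2 genes with the human symbol LRIT3 was 4.94-fold higher (3.75 to 6.64). LRIT3 was at 301 and 332 CPM in MG, far above its 8.69 and 42.9 CPM in C.

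Genes of amacrine and horizontal cells were also lower more often than higher. Of 29 amacrine genes 8 were lower and 2 higher (median -0.63). The calcium-binding protein calb2b had 2351, 2353 and 2334 CPM at 96hpf and 560, 568 and 555 CPM at 192hpf, 4.18-fold lower (4.03 to 4.35). SLC32A1, which loads GABA and glycine into vesicles, was 2.23-fold lower (2.01 to 2.47). The factors that define amacrine cells broadly stood closer to their 96hpf levels. TFAP2A went from 368 to 257 CPM, and the 2 genes with the human symbol PAX6 from 750 to 457 and from 385 to 402 CPM. One of the 8, PENK, is lower only through a single column and is not counted on here. Of 13 horizontal cell genes 4 were lower and 1 higher (median -0.65). The lower genes include isl1, which the bipolar list also holds, and PROX1, which the lens and vascular lists also hold. PROX1 was 2.51-fold lower (2.35 to 2.68), onecut3a 6.14-fold (1.94 to 21.6) at a low level and lhx1a 2.90-fold (1.46 to 6.67), whereas onecut1 stayed at 79.2 and 74.6 CPM. The higher gene was the sodium pump subunit ATP1B1, at 375 and 1088 CPM, which many cells make.

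Ganglion cell genes divided. Of 32 over the floor 12 were lower and 6 higher, with a median of -0.43. Factors that act in the making of ganglion cells were among the lower genes. The POU factor pou4f3 had 14.2, 14.8 and 13.7 CPM at 96hpf and 0.910, 1.46 and 1.18 CPM at 192hpf, 12.0-fold lower (5.36 to 29.1). The T-box gene tbr1b was 6.43-fold lower (3.81 to 12.5) and the homeobox gene ISL2 2.84-fold (2.42 to 3.35). RNA-binding proteins of the list were less different, with ELAVL3 at 568 and 451 CPM and RBPMS2 at 146 and 97.4 CPM. The guidance receptor ROBO2 went from 261 to 184 CPM. By contrast alcamb went up from 91.7 to 169 CPM, a difference of 1.85-fold (1.67 to 2.04) that was short of the limit. Among the 6 higher genes are some that other cells also make. The surface protein thy1, at 8.30 and 52.4 CPM, was 6.31-fold higher (4.80 to 8.51), and atoh7, which acts in the progenitors that give rise to ganglion cells, was 2.19-fold higher (1.85 to 2.60).

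Genes of synaptic release were lower as a group. Of 60 over the floor 18 were lower and 3 higher, the median log2 was -0.69 and the sum went from 21292 to 11398 CPM. The fusion protein SNAP25 had 3762, 3771 and 3771 CPM at 96hpf and 1764, 1757 and 1761 CPM at 192hpf, 2.14-fold lower (2.09 to 2.19). With the non-neural lists left out of the library size its log2 was -0.99. The scaffold lin7a was 3.80-fold lower (3.66 to 3.96), the vesicle protein SV2B 3.36-fold (3.16 to 3.59) and the calcium sensor syt5b 2.4-fold (2.33 to 2.47). At the ribbon, the structure that photoreceptors and bipolar cells use for sustained release, ctbp2a was 2.66-fold lower (2.49 to 2.83) and CPLX3 3.07-fold (2.35 to 4.0). Of the 2 genes with the human symbol SLC17A7, a vesicular glutamate transporter, one was 3.02-fold lower (2.78 to 3.27) at 412 and 137 CPM and the other had 13.1 and 25.9 CPM. The active zone genes pcloa and pclob went against the rest, 2.96-fold (2.66 to 3.29) and 2.39-fold (2.25 to 2.53) higher.

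Receptors, channels and adhesion genes of neurons were mixed. Of 83 neurotransmitter receptors 13 were higher and 13 lower, of 82 potassium channels 13 and 12, and of 51 sodium and calcium channels 3 and 8. The shares were 15.7% and 15.7%, 15.9% and 14.6%, and 5.88% and 15.7%, beside 19.4% and 10.9% of all genes. The NMDA receptor subunit GRIN1 had 1509, 1500 and 1477 CPM at 96hpf and 657, 659 and 673 CPM at 192hpf, 2.26-fold lower (2.17 to 2.34). The GABA receptor subunit GABRR1 went from 242 to 208 CPM, short of the limit. The potassium channel kcnb2a, which was at 364 CPM in MG at 96hpf, was 2.82-fold higher (2.36 to 3.37). Cadherins and protocadherins leaned lower, 22 of 60 against 11 higher (median -0.54), among them PCDH10, a homophilic adhesion protein, at 2.28-fold (2.14 to 2.43). The neural cadherin CDH2 went from 726 to 418 CPM. Axon growth and guidance genes gave 18 higher and 21 lower of 103, or 17.5% and 20.4%, with a median of 0.02. Some cytoskeletal genes of growing axons, named after their values were seen, were lower. The tubulin tubb5 was 5.33-fold lower (4.79 to 5.97), tuba1a 2.95-fold (2.84 to 3.06), and dpysl5b and dpysl5a, which bind tubulin in growth cones, 4.42-fold (3.91 to 5.03) and 3.64-fold (3.24 to 4.1).

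Genes of progenitors and the CMZ were more often higher than lower, while the sum of the list fell. Of 49 over the floor 15 were higher and 5 lower (median 0.39), and the sum went from 17424 to 13443 CPM. The cyclin CCND1, which retinal progenitors express, had 159, 159 and 161 CPM at 96hpf and 376, 375 and 392 CPM at 192hpf, 2.39-fold higher (2.22 to 2.57). The proneural genes ascl1a and ascl1b were 2.05-fold (1.64 to 2.58) and 4.58-fold (2.75 to 7.56) higher, and the Notch target her8a 6.20-fold (2.69 to 16.6) from 7.0 reads. The most abundant members are chromatin proteins made in many young cells, and they moved the other way without reaching the limit: HMGN2 from 5679 to 4065 CPM and hmga1a from 4140 to 2855 CPM. With TMM factors the log2 of ascl1a was 0.97, with median-of-ratios factors 0.96, with a pseudocount of 1 CPM 0.99, and without 96hpf C replicate 1 or 192hpf C replicate 3 it was 0.99 and 0.93, all under the limit. Neurod4, a factor of differentiating amacrine, bipolar and photoreceptor cells, was 2.13-fold lower (2.05 to 2.21), with a log2 of -0.98 when the non-neural lists were left out of the library size. Cell cycle genes moved little. Of 86 only 4 were higher and 1 lower, yet 71 of them had a log2 above 0 and the median was 0.35. The replication helicase gene MCM2 had 153 and 160 CPM and the nucleotide reductase RRM2 204 and 202 CPM, while the condensin ncapd2 was 2.59-fold higher (2.08 to 3.27). Of 12 histone genes 3 were lower and 1 higher. H3-3B, which encodes the replication-independent histone H3.3, was 2.53-fold lower (2.48 to 2.59) and may share reads with histh1l1.

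Genes of Müller glia had a high count for a fraction sorted against them. Of 36 over the floor 19 were higher and 4 lower (median 1.2), and the sum went from 4445 to 7459 CPM, against 22839 and 22579 CPM in MG. The apolipoprotein apoeb, made by glia and by microglia, had 230, 228 and 233 CPM at 96hpf and 1056, 1053 and 1054 CPM at 192hpf, 4.58-fold higher (4.34 to 4.83). The glutamine synthetase GLUL, at 1098 and 2103 CPM, was 1.92-fold apart (1.86 to 1.97). Some markers closer to Müller glia were higher too but low in level: rlbp1a had 7.34 and 52.0 CPM in C and 1174 and 746 CPM in MG, and aqp4 had 0.0329 and 1.82 CPM in C, where a floor of 10 reads ended its call, and 49.0 and 46.9 CPM in MG. GFAP went the other way, as given above. Of the 2 genes with the human symbol SLC1A2, a glutamate transporter that cones also carry, one was 11.6-fold higher (9.72 to 13.9), at 18.7 and 216 CPM, and the other went from 181 to 101 CPM. Some members do not do what the name of the list says. The largest difference of the list was that of icn2, a calcium-binding protein of the S100 family, 45.1-fold higher (38.2 to 53.4) at 20 and 901 CPM in C, and it had 0 and 1.78 CPM in MG. The lower members included the carbonic anhydrase cahz, 3.71-fold (3.33 to 4.15), which red cells also make, and a gene with the human symbol MDK, a growth factor, 2.56-fold (2.46 to 2.65).

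**Figure D2:**
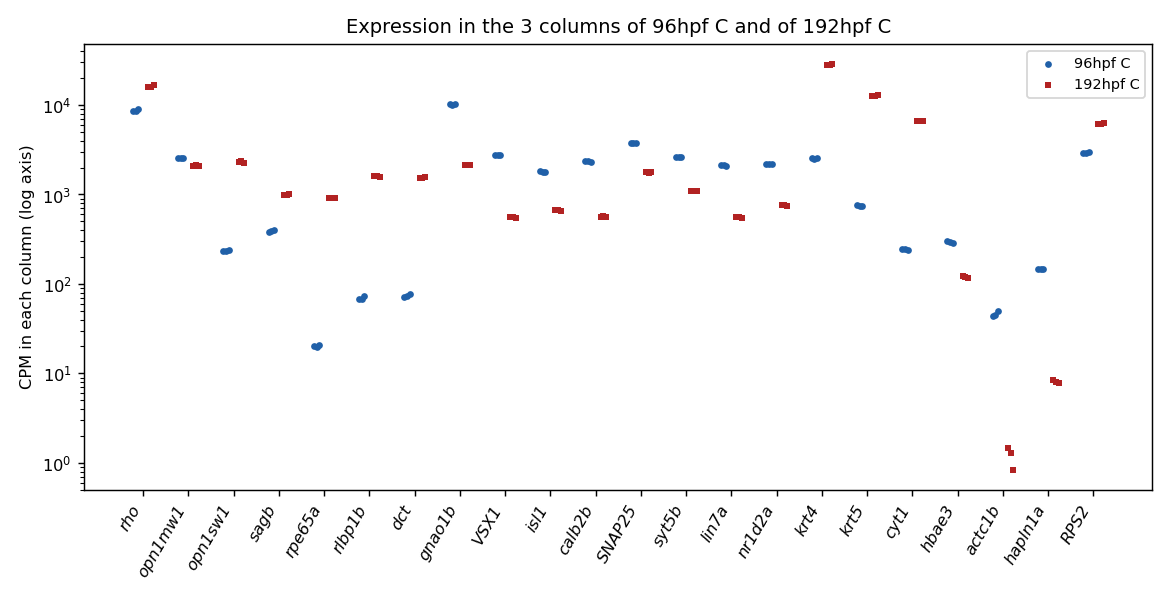
CPM (log axis) of 22 genes in each of the 3 columns of 96hpf C and of 192hpf C, 1 point a column. The points of a stage lie on top of each other for nearly all genes, as with rpe65a at 20, 19.9 and 21.0 against 915, 922 and 923 CPM.

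The list with the largest share of higher genes, of all lists described, was that of the cornea and epidermis. Of its 47 genes 43 were higher and 1 lower, with a median log2 of 2.95, and their sum went from 5234 to 67764 CPM. In MG the same genes summed to 361 and 664 CPM. The surface keratin krt4 had 2528, 2522 and 2579 CPM at 96hpf and 28328, 28205 and 28518 CPM at 192hpf, where no other gene had more reads. It was 11-fold higher (11.0 to 11.3). The basal keratin krt5 had 757, 745 and 736 CPM at 96hpf and 12704, 12580 and 13076 CPM at 192hpf, 17.1-fold higher (16.7 to 17.6). Of the keratins named, krt97 and krt17 had the largest ratios, 374-fold (294 to 480) and 82.0-fold (65.8 to 105), of which krt97 may share reads with si:rp71-1n18.1. Cyt1, krt91 and krt1-19e were 27.3-fold (26 to 28.6), 26.8-fold (25.3 to 28.4) and 12.4-fold (12.0 to 12.8) higher. Structural genes of other kinds accompanied them. The hemidesmosome collagen col17a1b was 9.90-fold higher (6.55 to 15), the envelope protein scel 53.1-fold (33.6 to 90.8), the phospholipid-binding anxa1c 44.2-fold (34.2 to 59.5) and the adhesion protein epcam 5.37-fold (4.25 to 6.89). TP63, the factor of basal epidermis, differed least among those named, 2.15-fold (1.84 to 2.5), with 37.1, 35.5 and 39.0 CPM at 96hpf and 79.6, 78.4 and 81.7 CPM at 192hpf. Genes of the cornea outside the keratins were also higher. The gelsolin family gene scinla, abundant in the fish cornea, was 14.4-fold higher (13.9 to 14.9) at 462 and 6660 CPM. The corneal stroma proteoglycan kera was 12.1-fold higher (10.2 to 14.5) at 18.9 and 229 CPM, and it was at 141 and 971 CPM in MG.

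Lens genes were higher at lower levels. Of 47 over the floor 28 were higher and 2 lower, with a median log2 of 1.41 and sums of 1000 and 1905 CPM. The list rose in MG too, where 23 of 37 genes over the MG floor were higher and 2 lower (median 1.36), with sums of 658 and 1862 CPM. The gamma crystallins crygm2d17 and crygm2d1 were 5.26-fold (4.74 to 5.83) and 4.71-fold (4.27 to 5.21) higher. Crystallin copies are near-identical, so the division of reads among them is uncertain. The lens factors pitx3 and foxe3 were 6.60-fold (5.54 to 7.87) and 3.18-fold (2.43 to 4.28) higher.

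Leukocyte genes were higher, from low levels. Of 44 over the floor 28 were higher and 2 lower (median log2 2.03), and the sum went from 244 to 622 CPM. The receptor csf1rb, which macrophages and microglia need, had 2.97, 2.82 and 3.85 CPM at 96hpf and 26.2, 25.9 and 25.2 CPM at 192hpf, 8.01-fold higher (5.12 to 12.8). Its paralog csf1ra was 8.87-fold higher (4.27 to 21.9) and the leukocyte phosphatase ptprc 12.3-fold (4.36 to 46.9). The complement genes c1qb and c1qc had no read at 96hpf and 1.38 and 1.14 CPM at 192hpf, at least 2.51-fold and 2.07-fold higher against the floor of 3 reads, while their counting intervals start at 2.24 and 1.55. A floor of 10 reads ended both calls, and so did leaving out 192hpf C replicate 2 for c1qb (log2 0.95) and replicate 3 for c1qc (0.87). The chemokine ccl34b.1, a marker of microglia in zebrafish, was 17.4-fold higher (10.5 to 32.3), and havcr1 84.3-fold (22.8 to 701) from 2.0 reads. The lysozyme lyz, of neutrophils and macrophages, opposed them, 3.79-fold lower (2.53 to 6.04). Antigen presentation and interferon genes gave 8 higher and 3 lower of 26 (median 0.66), or 30.8% and 11.5%, beside 19.4% and 10.9% of all genes. Among them the light chain b2ml was 2.32-fold higher (2.03 to 2.64) and the signal transducer stat1a 2.17-fold lower (2.04 to 2.31).

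Vascular genes were higher for the most part, but most of their abundant members were not. Of 30 over the floor 20 were higher and 2 lower (median 1.74), yet the sum was 932 CPM at 96hpf and 888 CPM at 192hpf. The endothelial receptor kdrl had 5.13, 5.04 and 4.2 CPM at 96hpf and 71.5, 72.0 and 68.8 CPM at 192hpf, 14.8-fold higher (10.6 to 21.7). Endothelial ecscr, plvapa and tie1 were 26.9-fold (10.1 to 101), 12.9-fold (5.29 to 34.8) and 7.20-fold (3.86 to 15.6) higher. Of the most abundant members, the junction cadherin cdh5 went from 110 to 80.1 CPM and MFSD2A from 115 to 57.6 CPM. PROX1, which is lower, is held by the horizontal cell list as well. The carrier slc2a1a was higher, at 9.85 and 72.7 CPM. Among 19 blood genes 7 were higher and 5 lower (median -0.40), or 36.8% and 26.3%, beside 19.4% and 10.9% of all genes. Their log2 ran from -1.99 to 3.34, so the list did not move one way. The genes named here are the most abundant, and none of the higher ones is among them. The embryonic globins hbae1.1 and hbae1.2 may share their reads and were 3.96-fold lower (3.66 to 4.29), and hbae3 was 2.47-fold lower (2.27 to 2.70). EPB41 had 506 and 547 CPM.

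A number of genes of muscle, cartilage and fin had reads at 96hpf and few or none at 192hpf. Of 42 muscle genes 21 were lower and 3 higher (median -1.03). The fast myosin light chain MYL11 had 56.9, 57.2 and 58.7 CPM at 96hpf and 0.364, 0.366 and 0.505 CPM at 192hpf, a ratio of 140 (44.7 to 1344) against 2.33 reads. The actin actc1b was 38.6-fold lower (17.8 to 92.7), the creatine kinase ckmb 19.3-fold (9.84 to 52.1), and the myosin heavy chain myhz2, at 13.5 CPM, had no read at 192hpf and was at least 24.6-fold lower against the floor of 3 reads (interval from 20.3). The 4 most abundant genes of the list were not lower, and its sum went from 1085 to 1217 CPM. GAPDH, which is made far beyond muscle, was 8.64-fold higher (7.73 to 9.70). The aldolase aldoaa had 597 and 510 CPM, the tropomyosin tpm1 87.9 and 113 CPM and the calcium pump atp2a1 74.0 and 95.9 CPM. Some genes of cartilage in the connective tissue list, named after their values were seen, were lower. COL10A1, a collagen of hypertrophic cartilage and bone, had 65.4, 63.8 and 64.5 CPM at 96hpf and no read at 192hpf, at least 118-fold lower against that floor (interval from 98.1). The matrix genes acana, hapln1a and MATN1 were 19.1-fold (6.69 to 66.4), 18.3-fold (13.7 to 25.4) and 6.88-fold (5.30 to 9.17) lower, and COL2A1, which the eye itself makes, 2.38-fold (2.21 to 2.56). Connective tissue as a whole gave 18 lower and 9 higher of 54 (median -0.45), while its sum went from 4167 to 5348 CPM. Of its 4 most abundant genes only COL2A1 was lower. SPARC was 5.09-fold higher (4.86 to 5.33), COL1A2 had 388 and 734 CPM and MATN4 331 and 345 CPM. Genes of structures outside the eye were also present at 96hpf. The fin fold gene and2 had 55.0, 54.4 and 55.9 CPM at 96hpf and 1.46, 1.46 and 2.19 CPM at 192hpf, 32.4-fold lower (16.7 to 65.2). Of 4 hox genes over the floor 2 were lower, HOXD9 and hoxa13b, which had 1.35 and 1.67 CPM at 96hpf and no read at 192hpf, at least 2.46-fold and 3.04-fold lower against the floor. Their counting intervals start at 1.71 and 2.12, and a floor of 10 reads ended both calls. The part of such tissue in the other differences was not tested.

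Among genes of oligodendrocytes and the optic nerve 5 of 24 were higher and 4 lower (median 0.02). The shares were 20.8% and 16.7%, beside 19.4% and 10.9% of all genes. The 2 myelin basic protein genes parted. Mbpa had 29.7, 31.1 and 34.2 CPM at 96hpf and no read at 192hpf, at least 57.7-fold lower against the floor (interval from 48), whereas mbpb had 40.0 and 47.5 CPM.

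Clock genes were lower at 192hpf. Of 35 over the floor 14 were lower and 2 higher, the median log2 was -0.81 and the sum went from 12992 to 8333 CPM. The nuclear receptor nr1d2a, a repressor within the clock, had 2211, 2215 and 2210 CPM at 96hpf and 758, 758 and 739 CPM at 192hpf, 2.94-fold lower (2.85 to 3.05). Its relatives nr1d2b and NR1D1 had differences of 2.19-fold (2.09 to 2.29) and 1.75-fold (1.71 to 1.79) downward, the latter short of the limit. The opposing receptors rorca and rorcb were 5.71-fold (5.0 to 6.54) and 5.12-fold (4.27 to 6.14) lower, and the repressor nfil3-5 5.65-fold (4.86 to 6.62). Core activators were lower as well, arntl1a 4.0-fold (3.2 to 5.06) and npas2 3.94-fold (2.39 to 7.0), and so was the light-induced PER2, 3.83-fold (3.35 to 4.42). The repressor BHLHE41 was 3.66-fold higher (3.46 to 3.88), from 221, 218 and 223 to 806, 814 and 804 CPM, and the melatonin enzyme aanat2 3.85-fold (2.39 to 6.16). Dbpb, one of the most abundant genes of the list, went from 654 to 1100 CPM, a difference of 1.68-fold (1.62 to 1.75) that was short of the limit. The hour of dissection was not given in the sources used here, and its part was not tested. In MG the clock list as a whole was not lower. Of 35 genes over the MG floor 6 were higher and 5 lower (median -0.15), and the sum went from 8714 to 9735 CPM. There nr1d2a had 945 and 854 CPM, nr1d2b 587 and 627 CPM and dbpb 415 and 1080 CPM. PER2 and BHLHE41, picked after their values were seen, moved in MG as in C, from 221 to 63.6 CPM and from 193 to 1004 CPM.

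Of 83 genes named as ribosomal proteins, which include some kinases and binding proteins of similar name, 19 were higher and 1 lower, and the median log2 was 0.80, between -1.23 and 1.72. In the 71 that remained when those were taken out after the values were seen, 19 were higher and none lower, and all 71 had a log2 above 0 (median 0.84). RPS2 had 2928, 2916 and 2981 CPM at 96hpf and 6163, 6176 and 6268 CPM at 192hpf, 2.11-fold higher (2.07 to 2.15). The 2 genes with the human symbol RPL5 were 3.30-fold (3.1 to 3.52) and 2.90-fold (2.77 to 3.03) higher. RPLP0, rpl3 and rps20 were 1.73-fold, 1.71-fold and 1.46-fold apart, and the elongation factor eef1a1l1 1.62-fold. Of 43 proteasome genes 2 were higher and 1 lower (median -0.15).

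Of 89 subunits of oxidative phosphorylation 3 were higher and 6 lower (median -0.18), with UQCRC1 at 484 and 311 CPM and atp5a1 at 757 and 497 CPM. Of 46 genes of glycolysis and lactate 9 were higher and 7 lower (median -0.05), shares of 19.6% and 15% beside 19.4% and 10.9% of all genes. GAPDHS, the form of glyceraldehyde phosphate dehydrogenase abundant in C, had 5362, 5350 and 5347 CPM at 96hpf and 2439, 2440 and 2446 CPM at 192hpf, 2.19-fold lower (2.15 to 2.24), while the GAPDH of the muscle list was higher. ENO1 was 2.27-fold lower (2.2 to 2.35). Of the 2 genes with the human symbol SLC16A1, a lactate carrier, one was 14.8-fold higher (10.9 to 20) and the other went from 20.2 to 30.1 CPM. Creatine kinase CKB, which buffers ATP in neurons, went from 12667 to 8968 CPM. Of 320 solute carriers 95 were higher and 31 lower (median 0.21). Among these the glucose carrier slc2a1a was 7.38-fold higher (5.73 to 9.59), the zinc carrier SLC30A8 37.9-fold (26.6 to 57.9), and the neutral amino acid carrier slc1a4 5.40-fold lower (4.22 to 7.10).

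Of 66 immediate early and heat shock genes 16 were higher and 6 lower (median 0.15), or 24.2% and 9.09%, near the shares of all genes. The genes named here were picked after their values were seen or for their abundance. The inducible heat shock genes hsp70l and hspa1b were 5.05-fold (4.24 to 6.07) and 32.7-fold (11.4 to 113) higher, and in MG they went from 42.6 to 279 CPM and from 0 to 57.5 CPM. The chaperones of the endoplasmic reticulum HSPA5 and hsp90b1 were 4.22-fold (3.89 to 4.56) and 3.05-fold (2.80 to 3.31) lower. HSPA5 had 552, 552 and 553 CPM at 96hpf and 128, 130 and 135 CPM at 192hpf. The cytosolic chaperone HSP90AB1 had 1396 and 1548 CPM. Of the immediate early genes, which respond within minutes to handling, JUN had 672 and 560 CPM and JUNB 601 and 535 CPM.

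**Figure D3:**
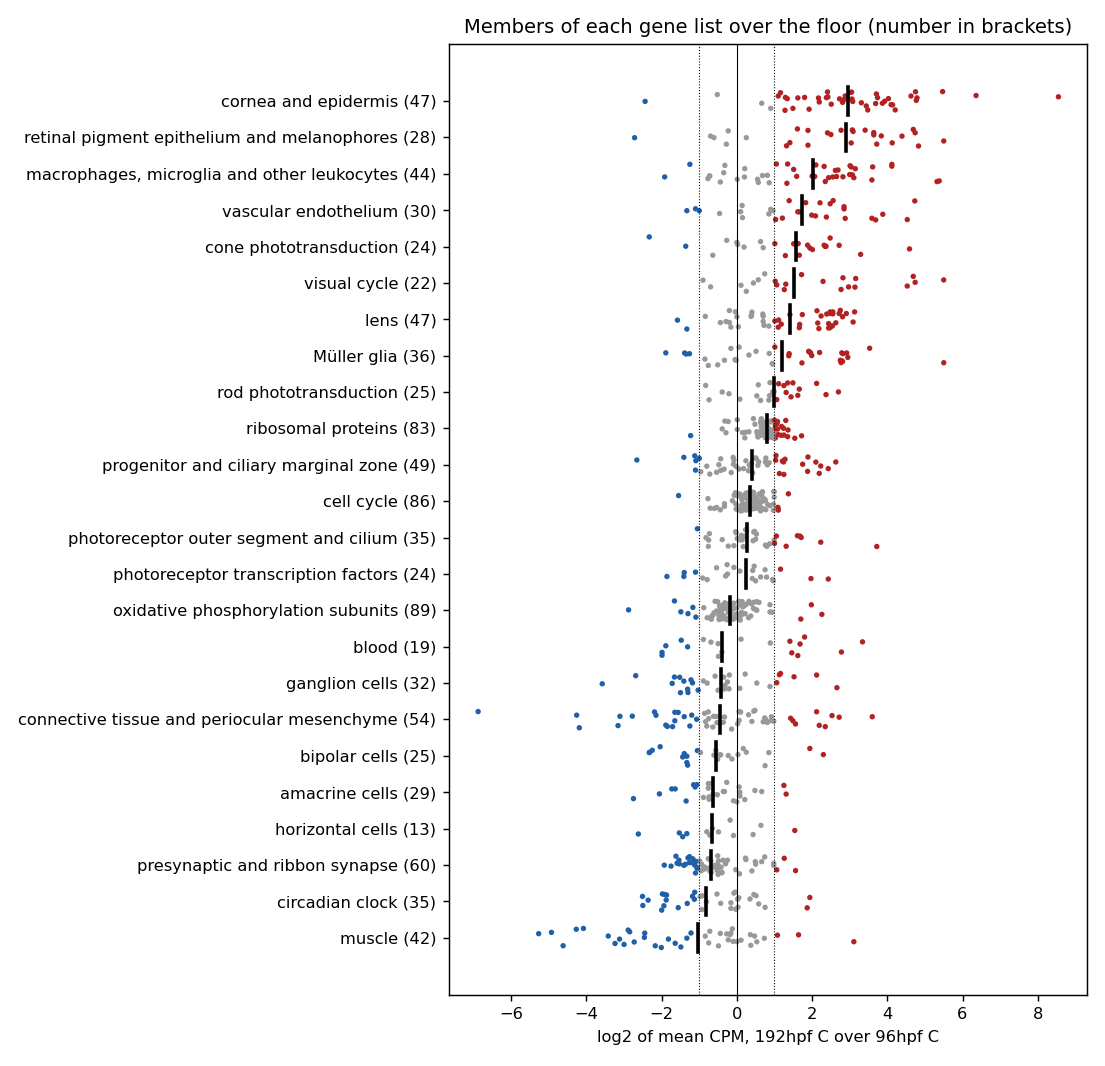
Log2 of 192hpf C over 96hpf C for the members of 24 lists over the floor, 1 point a gene, with a bar at the median of each list and lines at the 2-fold limits. Medians run from 2.95 in cornea and epidermis and 2.90 in RPE and melanophores down to -0.81 in clock genes and -1.03 in muscle.

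The largest differences were sought among genes with a symbol, at least 20 CPM in the higher group and columns apart. They included epithelial genes at the higher end and genes of muscle, cartilage and fin at the lower end. At the top stood si:dkey-7c18.24, at 0.135, 0.406 and 0.270 CPM at 96hpf and 1107, 1128 and 1089 CPM at 192hpf, a ratio of 4095 (1133 to 33816) against 2.0 reads. G0s2, an inhibitor of triglyceride lipase, and rhcga, an ammonium channel of skin ionocytes in zebrafish, had ratios of 298 (70.8 to 15759) and 209 (49.4 to 11041), each against 1.33 reads. The transcription factor prdm1b was 84.7-fold higher (34 to 249) and soul2, of a heme-binding family, 66.0-fold (23.2 to 224). A pair of genes known by clone names, si:dkeyp-1h4.6 and si:ch211-213i16.3, had no read at 96hpf and were at least 88.0-fold and 71.6-fold higher against the floor. Mrps18b, of the mitochondrial ribosome, went from 31.4 to 1649 CPM, 52.5-fold (46.0 to 60.0), and its count may hold reads of an overlapping gene. At the lower end, beside MYL11, COL10A1, mbpa, and2 and the actins, the collagen col6a4a had a ratio of 64.5 (21.7 to 312) and the fatty acid-binding protein fabp10b of 73.1 (24.8 to 357), each against 3.0 reads. Aebp1b, a matrix protein, was 12.0-fold lower (8.07 to 18). JADE1 was the one very abundant gene among them, at 1387, 1473 and 1421 CPM at 96hpf and 80.3, 78.6 and 77.4 CPM at 192hpf, 18.1-fold lower (16.5 to 20). Its count, too, may hold reads of an overlapping gene.

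The most abundant genes changed places between the stages. At 96hpf the non-coding RNA malat1 and rarres3, which may share reads, led. Malat1 had 21698, 21838 and 21276 CPM at 96hpf and 11327, 11095 and 11164 CPM at 192hpf. Both genes lie just under the 2-fold limit. The mitochondrial ATP carrier SLC25A5 went from 10027 to 7652 CPM. At 192hpf krt4, rho and krt5 led. The 10 most abundant genes held 11.3% of reads at 96hpf and 11.8% at 192hpf, so neither library was dominated by a few genes more than the other.

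The 120hpf C library, between them in time, did not lie between them in values. There the 10 most abundant genes held 30.0% of the reads, with malat1 at 61391 CPM. Against 96hpf, 44.3% of all genes over the floor were lower at 120hpf by 2-fold or more and 11.2% were higher. The bipolar list went from 21570 through 993 to 6264 CPM, the synaptic list from 21292 through 5250 to 11398 CPM and the clock list from 12992 through 3069 to 8333 CPM. Epithelial genes went from 5234 through 1383 to 67764 CPM, rod genes from 11749 through 3786 to 21072 CPM and visual cycle genes from 401 through 357 to 3984 CPM. Each of these lists was lower at 120hpf than at both other stages, whatever its direction between 96 and 192hpf.

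**Figure D4:**
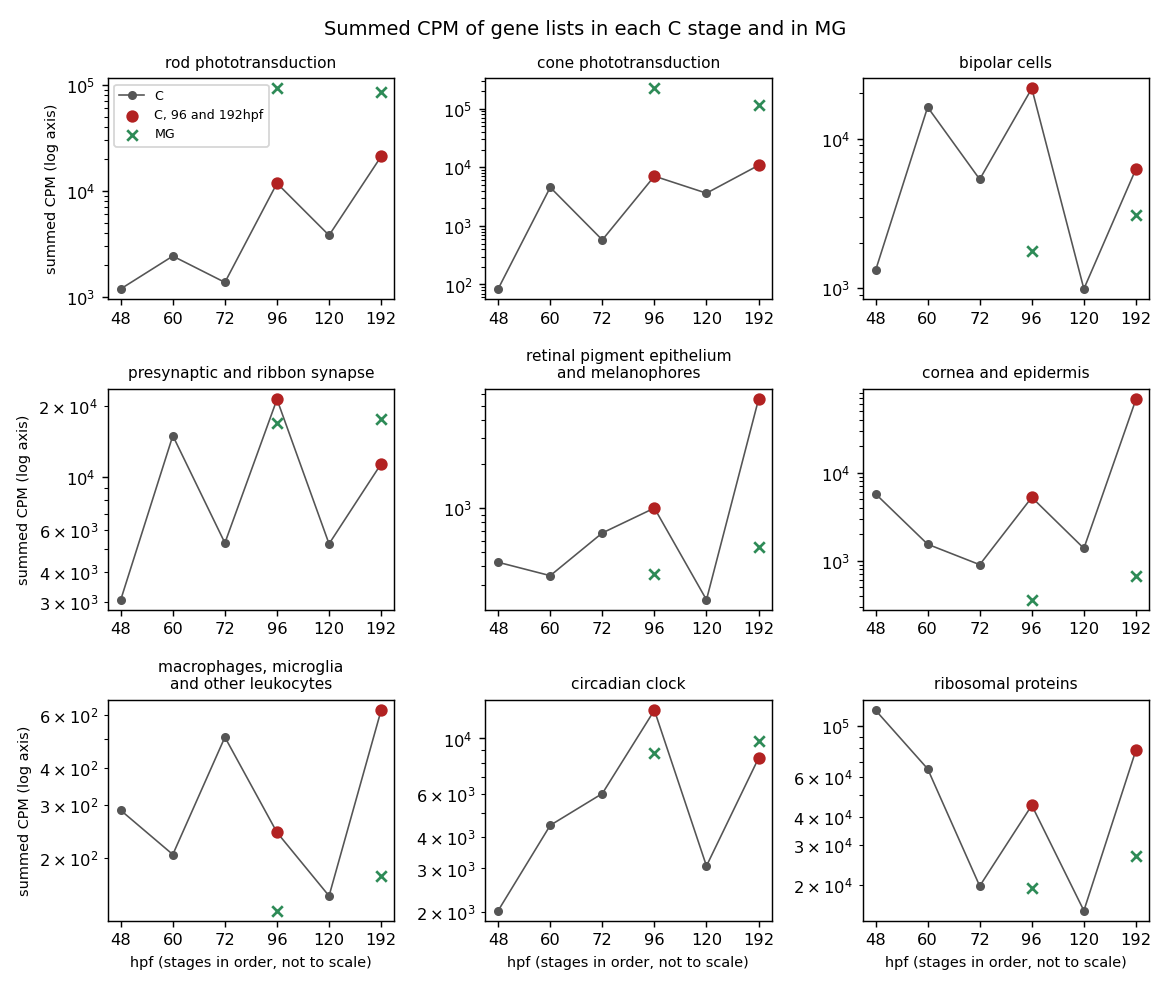
Summed CPM (log axis) of 9 lists in C at 48, 60, 72, 96, 120 and 192hpf, joined by lines, with MG at 96 and 192hpf as crosses. The cornea and epidermis line ends at 67764 CPM, the bipolar line at 6264 CPM after 21570 CPM at 96hpf, and the 120hpf points of the rod, bipolar, synaptic, clock and epithelial lists lie below those of 96 and 192hpf.

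In MG the same stages gave 2297 genes higher (15.4% of 14938 over a floor of 1.24 CPM) and 654 lower (4.38%). Of the 3599 genes higher in C, 2402 were over the MG floor, of which 592 (24.6%) were at least 2-fold higher there and 132 (5.50%) at least 2-fold lower. Of the 2015 genes lower in C, 1516 were over it, of which 133 (8.77%) were lower and 179 (11.8%) higher. The bipolar list summed to 1779 CPM at 96hpf and 3083 CPM at 192hpf in MG, beside 21570 and 6264 CPM in C. VSX1 had 54.1 and 131 CPM in MG, gnao1b 318 and 803 CPM and isl1 123 and 436 CPM. The sum of the cone list fell in MG, from 221226 to 113706 CPM, and rose in C, from 7056 to 10789 CPM. The fall in MG lay with opn1mw1, which had 166061 and 56529 CPM there. By count the list did not fall in MG, with 6 of 25 genes higher and 4 lower (median -0.07). The opsin opn1sw1 went up in MG as in C, from 5396 to 12274 CPM. How cells divided between the gates at each stage was not tested.

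**Figure D5:**
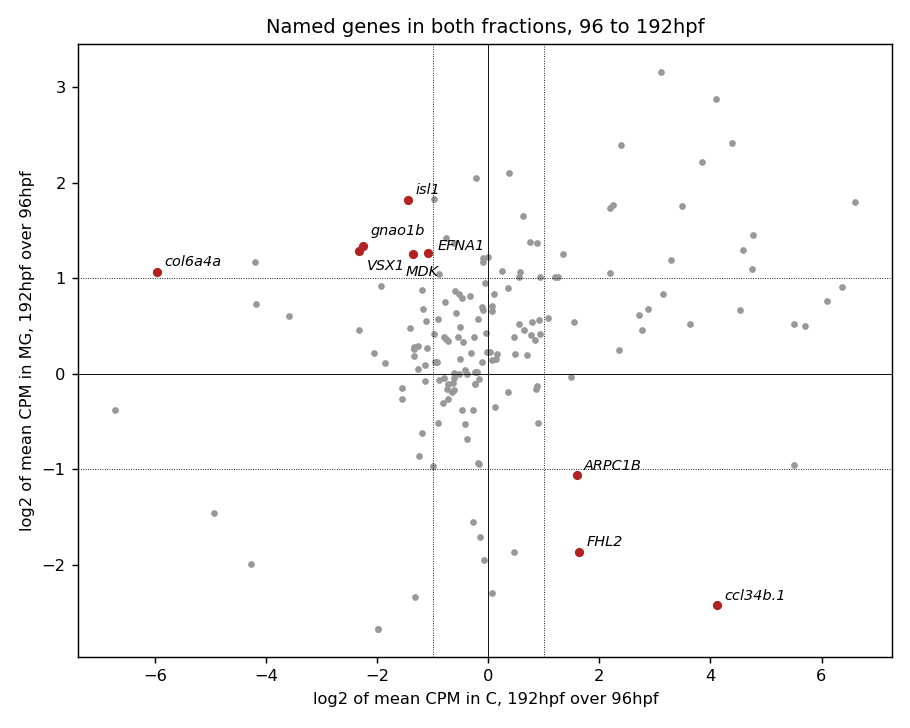
Log2 of 192hpf over 96hpf in C (x axis) and in MG (y axis) for the named genes over the floor in both fractions, 1 point a gene. The 9 labelled genes lie past the 2-fold limits in opposite directions with no overlap of columns in either fraction, for example gnao1b at -2.25 in C and 1.34 in MG and ccl34b.1 at 4.12 and -2.42.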

How the data were processed

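Per the labels and the methods of the study, RNA was amplified (Ovation, NuGEN), libraries were made with Nextera, reads were trimmed with Trimmomatic and aligned with HISAT2, and the authors worked with limma, DESeq2 and edgeR. The build is GRCz10 in the labels and Zv9 in the methods, so no coordinates or sequences are given. The authors deposited log2 CPM values of 31540 genes in 36 columns, with a prior of 0.25 read and no TMM factor. The prior was taken off, and reads were recovered on steps of 0.01 read, since reads of overlapping or repeated genes were divided.

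Values were computed in Python (3.11.15; numpy 2.4.6; scipy 1.17.1; pandas 2.3.3), figures drawn with matplotlib 3.10.9, and 1 alternative fitted with limma 3.58.1 in R 4.3.3. Chi-square ratios used genes with at least 20 reads in a pair of columns. Means over the 3 columns of a group stand for 1 library. A mean under 3 reads of the shallower library (0.549 CPM) was set to that floor, and intervals are exact (Clopper-Pearson, 95%) from the mean reads per column. They and the floor cover counting error only. A ratio in the text is that of the means without the floor, and the 2-fold limit was applied with it.

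Genes named were, first, the 12 highest and 12 lowest by log2 with at least 20 CPM in the higher group and columns apart. The 4 most abundant members of each list and the 10 most abundant genes of each stage were added. The remaining genes were picked after their values were seen. The groups and lists were chosen with earlier results of these data known. Of the 31540 genes 26160 had a symbol. A symbol in capitals is the human one that the reference table gives, and 2 zebrafish genes may share it. Alternatives were other scalings, floors and pseudocounts, limma on the columns, and each column left out. The steps were tested on simulated data. Not every gene that enters a total is named.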

Additional observations from a re-analysis of the deposited data

Results flagged for a closer look

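Genes that were at least 2-fold apart in opposite directions in C and in MG between 96 and 192hpf were looked for among those named by rule. With 1 library per fraction and stage, the difference between the fractions was not tested.

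Lower in C and higher in MG were 6 genes. The log2 of 192hpf over 96hpf was -5.96 in C and 1.07 in MG for col6a4a, a collagen that was at 2.60 CPM or less in MG. It was -2.25 and 1.34 for gnao1b, -2.32 and 1.28 for VSX1 and -1.44 and 1.82 for isl1. The bipolar list holds all of these, and the horizontal cell list holds isl1 as well. For a gene with the human symbol MDK, a growth factor, it was -1.35 and 1.25. Another gene with that symbol did not rise in MG, with 465, 471 and 448 CPM at 96hpf and 388, 389 and 379 CPM at 192hpf. For the ephrin EFNA1 the log2 was -1.08 and 1.26 (-0.98 in C with the non-neural lists left out of the library size). All of the flagged genes but col6a4a were still less abundant or near equal in MG at 192hpf than in C. Examples are VSX1 at 131 against 556 CPM and the flagged MDK gene at 709 against 670 CPM.

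Higher in C and lower in MG were 3. The log2 was 1.64 in C and -1.86 in MG for FHL2, 1.59 and -1.06 for ARPC1B, an actin-nucleation subunit of leukocytes, and 4.12 and -2.42 for ccl34b.1. Their MG levels were low, from 3.82 to 7.36 CPM at 96hpf and from 1.37 to 1.83 CPM at 192hpf, near the MG floor of 1.24 CPM.

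Genes that were picked after their values were seen gave further cases, not sought by rule. The log2 was -2.69 in C and 1.79 in MG for tbr1b, -1.91 and 1.02 for LHX4 and -1.09 and 1.40 for neurod4, and it was 2.85 and -2.43 for tie1, 2.42 and -1.21 for epcam, 1.94 and -1.26 for GRM6 and 1.67 and -1.41 for foxe3. For hapln1a, which was named by rule, the values were -4.19 and 1.17, but its columns in MG overlap.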

How the results depend on the processing

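Against 3599 genes higher and 2015 lower as reported, TMM factors gave 3383 and 2223, median-of-ratios factors 3354 and 2252, the library size without lists of non-neural eye tissue (chosen after the data were seen) 3951 and 1712, a floor of 10 reads 2643 and 1400, and a pseudocount of 1 CPM without a floor 2819 and 1493. Leaving out 1 column at a time gave 3571 to 3628 and 2009 to 2067. All of these lie within 1.5 times the reported counts. The scalings moved the median log2 of all genes by -0.06, -0.07 and 0.09. In limma on the 6 columns 3948 genes were higher and 2347 lower, and with a replicate block 3936 and 2333, but columns of 1 library give this fit no spread between animals. Deviations of columns with the same replicate number correlated at -0.011, -0.015 and -0.027 between the stages. Since columns of a group differ about as draws from 1 library, this cannot show whether the replicate numbers pair them. Of the genes named, only PENK reversed, from a log2 of -1.64 to 0.77 without 96hpf C replicate 2 (from -2.13 to 0.77 over the columns left out), and the cause was not tested. Of 195 calls among the genes named, TMM and median-of-ratios factors each ended 2 (ascl1a and opn1mw2), the library size without non-neural lists 3 (SNAP25, EFNA1 and neurod4), the pseudocount 5 (ascl1a, opn1mw2, GFAP and both genes with the human symbol KCNJ10), a floor of 10 reads 9 (GFAP, aqp4, both KCNJ10, her12, c1qb, c1qc, HOXD9 and hoxa13b) and leaving out a column 0 to 2. Depth limits genes near the floor: of the calls, 3237 higher and 1716 lower had an interval that leaves out a ratio of 1. Sequence, isoforms and strand were not analysed here.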

Other observations

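Of all genes, 3 had 1 column far from the others although the columns of a group agree within sampling noise at the median gene. They were found by asking for a highest column over 10 CPM and over 5 times the median column, taken as at least 1 CPM, among 18560 genes. PENK, the precursor of enkephalins, had 5.54, 80.5 and 6.08 CPM at 96hpf C. FBXO33 had 124, 11.8 and 13.7 CPM at 96hpf C, and at 192hpf C it had 345, 6.58 and 249 CPM, so its 4.01-fold ratio (3.59 to 4.56) says little. The gene si:ch211-276i12.11 had 9.17, 62.5 and 8.76 CPM at 192hpf C. Its neighbour by name, si:ch211-276i12.12, was among the most abundant genes at 96hpf, at 12432 CPM, and was 2.4-fold lower at 192hpf (2.37 to 2.44).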
